A study of Mus musculus with 8 samples.

Results

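Glycogen is the branched glucose store of heart muscle, and the 9 genes described here encode the enzymes that build and break it down together with proteins that bring a phosphatase to it. They were taken by name from the deposited table of counts per gene, 3 for synthesis (Ugp2, Gys1, Gbe1), 2 for breakdown (Pygm, Pygb) and 4 for glycogen-targeting subunits of protein phosphatase 1, or PP1 (Ppp1r3a, Ppp1r3b, Ppp1r3c, Ppp1r3d). All 9 of 9 were found among 55573 genes, and all 9 passed the filter on low counts that left 17411 genes for testing. RNA was sequenced from hearts of db/db mice and of db/m mice, with 4 libraries per genotype. All animals were male, 24 weeks of age and of strain C57BLKS/J. The db/db mouse is homozygous for a mutation of the leptin receptor and becomes obese and diabetic, while the db/m mouse is heterozygous, so both groups carry the mutant allele and the comparison asks what differs with the diabetic genotype. The labels name hearts and no separate animals, so p-values measure the spread between these libraries, which may be partly technical.

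Heart muscle cells make glycogen from UDP-glucose, which glycogen synthase adds to a growing chain and the branching enzyme rearranges into branches. Glycogen phosphorylase releases glucose phosphate from the chain ends when energy is short. PP1 removes phosphate from both enzymes, which switches the synthase on and the phosphorylase off, and the PPP1R3 subunits decide where it acts by binding PP1 and glycogen at once. In diabetes the heart is known to hold altered amounts of glycogen, which RNA counts do not measure.

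Total counts ranged from 19921015 to 22249911 in db/db replicates 1 to 3, stood at 19541757 in db/db replicate 4, and ranged from 20659351 to 21847393 in db/m. The summed CPM (a count scaled by the effective size of its library) of 6 heart muscle markers was 28654 to 35022 in db/db and 26056 to 32911 in db/m. This sum hides a difference in db/m replicate 3. There Myl2 (117 CPM), Myl3 (758), Tnni3 (417), Tnnt2 (489) and Actc1 (3796) were the lowest of all libraries, while Myh6 (20479) was the highest. The control libraries were not alike, since db/m replicates 1 and 3 lay above the other 6 libraries in 6 of 6 atrial and 7 of 8 adipocyte markers. Atrial markers summed to 24.9 to 118 CPM in db/db and 16.0 to 3887 CPM in db/m. Adipocyte markers summed to 336 to 644 CPM in db/db and 335 to 1043 CPM in db/m. The adipocyte sum also hides a difference, because it contains Fabp4, the marker that went otherwise. Fabp4 had 304 to 607 CPM in db/db and 327, 318, 186 and 309 CPM in db/m replicates 1 to 4. Ucp1 had 0 counts in every db/db library and 1765, 2, 8220 and 0 counts in db/m replicates 1 to 4. In db/m replicate 3, genes shorter than 1500 bases had a median log2 deviation of -0.49 from their mean over the libraries and genes longer than 6000 bases one of 0.37, while no other library went beyond 0.18 or -0.13. Values without db/m replicate 3, or without db/m replicates 1 and 3 together, are given beside a result where they change it. The choice of these libraries followed a look at their values.

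The 9 genes lie on 7 chromosomes in mm10, with Pygm and Ppp1r3c on chromosome 19 and Pygb and Ppp1r3d on chromosome 2. Pygm (chromosome 19, 6384399 to 6398459) and Pygb (chromosome 2, 150786735 to 150831758) share a plan of 20 coding exons each, with 2526 and 2529 coding bases. The PP1 subunits are built otherwise: Ppp1r3a has 3267 coding bases in 4 exons, while Ppp1r3b (852 bases) and Ppp1r3d (837 bases) have 1 coding exon each and Ppp1r3c (951 bases) has 2. No transcript of another gene matched a member at 95% identity over at least 0.5 of its own length, so copies of that kind took no reads from these genes. Exons of Gys1 share 310 bases with Ruvbl2 on the other strand, and exons of Ugp2 share 78 bases with Gm12043 on the other strand. With no strand setting known, reads there cannot be told apart, but Ruvbl2 held 1363 counts against 21563 of Gys1, and Gm12043 held 92 against 49352 of Ugp2.

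Promoters are printed for the 3 PP1 subunits that have an entry. Of the 4 subunits only Ppp1r3b, which has none, differed in its share without overlap between the 2 genotypes, as described further on. RefSeq promoters (build GRCm38.p6, 250 bases before the start site and 50 after it) were matched for 8 of the 9 members, that is for all but Ppp1r3b. Letters in capitals mark 5 motifs searched on both strands, none of which contains another: the E-box CACGTG, the FOXO site TGTTTAC, the CCAAT box CCAAT, the TATA box TATAAA and the GC box GGGCGG. The windows are chr19:36736555-36736854 on the minus strand for Ppp1r3c, chr2:178414414-178414713 on the minus strand for Ppp1r3d and chr6:14755225-14755524 on the minus strand for Ppp1r3a.
Ppp1r3c: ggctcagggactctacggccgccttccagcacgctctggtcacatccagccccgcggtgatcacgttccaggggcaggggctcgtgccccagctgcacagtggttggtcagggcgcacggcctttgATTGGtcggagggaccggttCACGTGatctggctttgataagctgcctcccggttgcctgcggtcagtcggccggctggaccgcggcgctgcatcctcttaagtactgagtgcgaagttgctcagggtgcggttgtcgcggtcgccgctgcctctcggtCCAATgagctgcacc
Ppp1r3d: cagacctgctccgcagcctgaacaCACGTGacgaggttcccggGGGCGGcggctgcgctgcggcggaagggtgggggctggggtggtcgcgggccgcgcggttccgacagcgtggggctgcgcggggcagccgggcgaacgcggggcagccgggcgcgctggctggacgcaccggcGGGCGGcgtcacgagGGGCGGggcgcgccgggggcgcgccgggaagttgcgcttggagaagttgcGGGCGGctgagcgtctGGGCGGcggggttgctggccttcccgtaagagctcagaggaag
Ppp1r3a: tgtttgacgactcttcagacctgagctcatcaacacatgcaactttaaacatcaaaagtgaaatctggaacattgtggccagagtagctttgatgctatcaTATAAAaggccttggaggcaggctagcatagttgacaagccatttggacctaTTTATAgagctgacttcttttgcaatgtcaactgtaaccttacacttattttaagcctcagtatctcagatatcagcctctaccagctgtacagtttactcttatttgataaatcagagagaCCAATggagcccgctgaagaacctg
The Ppp1r3c window holds an E-box 104 bases before the start site and 2 CCAAT boxes, 124 bases before it and 36 bases into the transcript. Ppp1r3d has an E-box 226 bases before the start site and 5 GC boxes, and Ppp1r3a has 2 TATA boxes, 149 and 97 bases before the start site, and a CCAAT box. GC content was 65.3% for Ppp1r3c, 77.0% for Ppp1r3d and 41.0% for Ppp1r3a, with a median of 52.7% over 32851 promoters. Of those 32851 windows 7.15% hold the E-box, 37.4% the CCAAT box, 35.7% the GC box, 13.6% the TATA box and 3.65% the FOXO site. Among the 8 members the E-box is in 2 and the FOXO site in 0. These are letter matches only.

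Compared per length, phosphorylase RNA was far more abundant than synthase RNA in hearts of both genotypes. In CPM per kilobase of merged exons, Pygm, the muscle phosphorylase, averaged 216 ± 16.1 in db/db and 172 ± 26.7 in db/m (SD, n = 4 each), and Pygb, the form first known from brain, averaged 195 ± 23.3 in db/db and 137 ± 17.6 in db/m. Next came Ugp2, which makes UDP-glucose, at 95.2 ± 1.49 in db/db and 97.0 ± 26.4 in db/m on the same scale. Ppp1r3c, the subunit called protein targeting to glycogen, followed at 69.4 ± 12 in db/db and 88.4 ± 6.19 in db/m, the highest of the 4 PP1 subunits. Gys1, the synthase of muscle and heart, stood at 28.1 ± 0.987 in db/db and 25.7 ± 3.40 in db/m, close to Ppp1r3a, the main targeting subunit of skeletal muscle, at 25.7 ± 1.6 in db/db and 28.4 ± 3.24 in db/m. The lowest 3 were Ppp1r3d (9.97 ± 1.47 in db/db and 9.95 ± 2.43 in db/m), Gbe1, the branching enzyme (9.19 ± 1.06 in db/db and 9.99 ± 0.467 in db/m), and Ppp1r3b, a subunit first known from liver (6.37 ± 0.871 in db/db and 13.4 ± 3.29 in db/m). Ppp1r3b ranked last of 9 in db/db and 7th of 9 in db/m, ahead there of Gbe1 and Ppp1r3d. Of neighbours in this order, Pygm and Pygb overlapped in their ranges in each genotype, as did Gys1 with Ppp1r3a and Gbe1 with Ppp1r3d, so their order is within the spread. In db/m, where Ugp2 ranged widely, Ugp2 also overlapped with Pygb and with Ppp1r3c. The merged exon length is the length of all annotated exons together and not that of the transcript used in the heart.

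**Figure D1:**
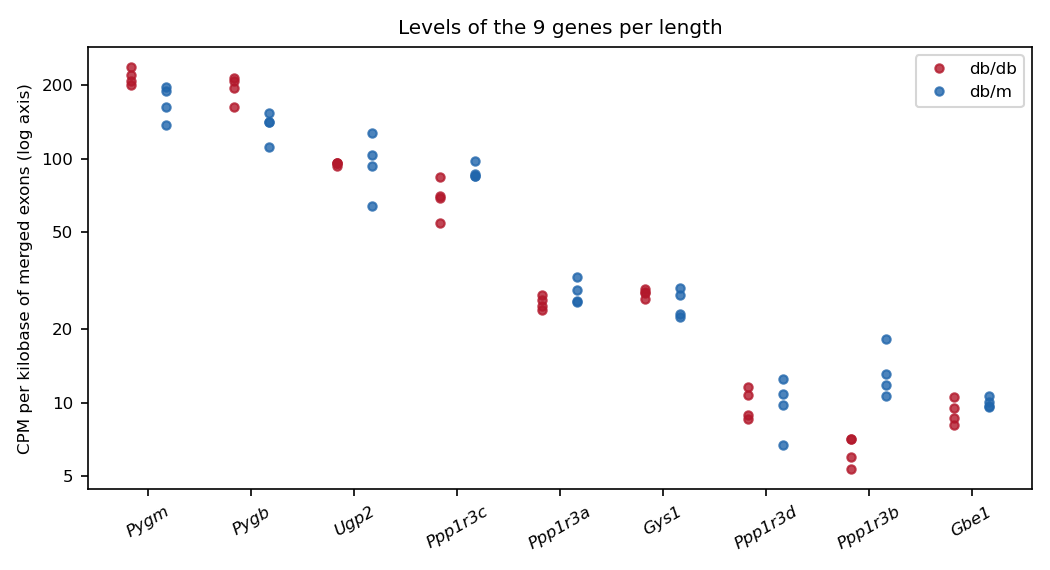
Level of each of the 9 genes in CPM per kilobase of merged exons (log axis), with db/db libraries in red left of db/m libraries in blue, each point 1 library. Pygm and Pygb are highest at 112 to 237, and Ppp1r3b is at 5.33 to 7.10 in db/db and 10.7 to 18.1 in db/m.

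Across the comparison of db/db with db/m, the 2 phosphorylases were higher in every db/db library than in any db/m library, Ppp1r3b and Ppp1r3c were lower in every db/db library, and the 3 synthesis genes, Ppp1r3a and Ppp1r3d overlapped between the groups. None of these differences passed in edgeR with all 8 libraries and the filter on low counts, while other fits of the same libraries called Ppp1r3b or Pygb, as given next. By edgeR with Benjamini-Hochberg adjustment, 0 of the 9 genes had an adjusted p under 0.05, with a lowest adjusted p of 0.114, beside 0.00574% of the 17411 genes called lower and 0% called higher. At an unadjusted p under 0.05 there were 4 of 9 (2 higher and 2 lower), where 13.0% of all genes reached it. The same 4 genes had groups that did not overlap, as had 9.65% of all genes tested (4.61% lower in db/db and 5.04% higher). DESeq2 called 1 member lower (Ppp1r3b) and 1 higher (Pygb), against 1.10% and 1.07% of all genes, and limma-voom, run with quality weights per library, called Ppp1r3b lower, against 0.270%. The median log2 fold change was -0.028 over the 9 genes and -0.019 over all genes tested, and 4 of the 9 were positive. The count of members higher at an unadjusted p was 1 in place of 2 in 12 of 18 alternatives, where 3.03% to 5.71% of all genes reached it. These were upper-quartile factors (5.11%), library totals only (3.03%), no filter (3.84%), 1 CPM in 4 libraries (5.31%), the replicate block (5.40%), db/m replicates 1 and 3 left out (5.63%) and 6 of the 8 single leave-outs. The count lower was 1 in place of 2 in 8 of 18, beside 5.11% to 10.3% of all genes, namely with no filter (5.49%), with the replicate block (6.08%) and in 6 of the 8 single leave-outs. With db/m replicates 1 and 3 left out it was 3, Ugp2 among them, beside 5.04%.

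**Figure D2:**
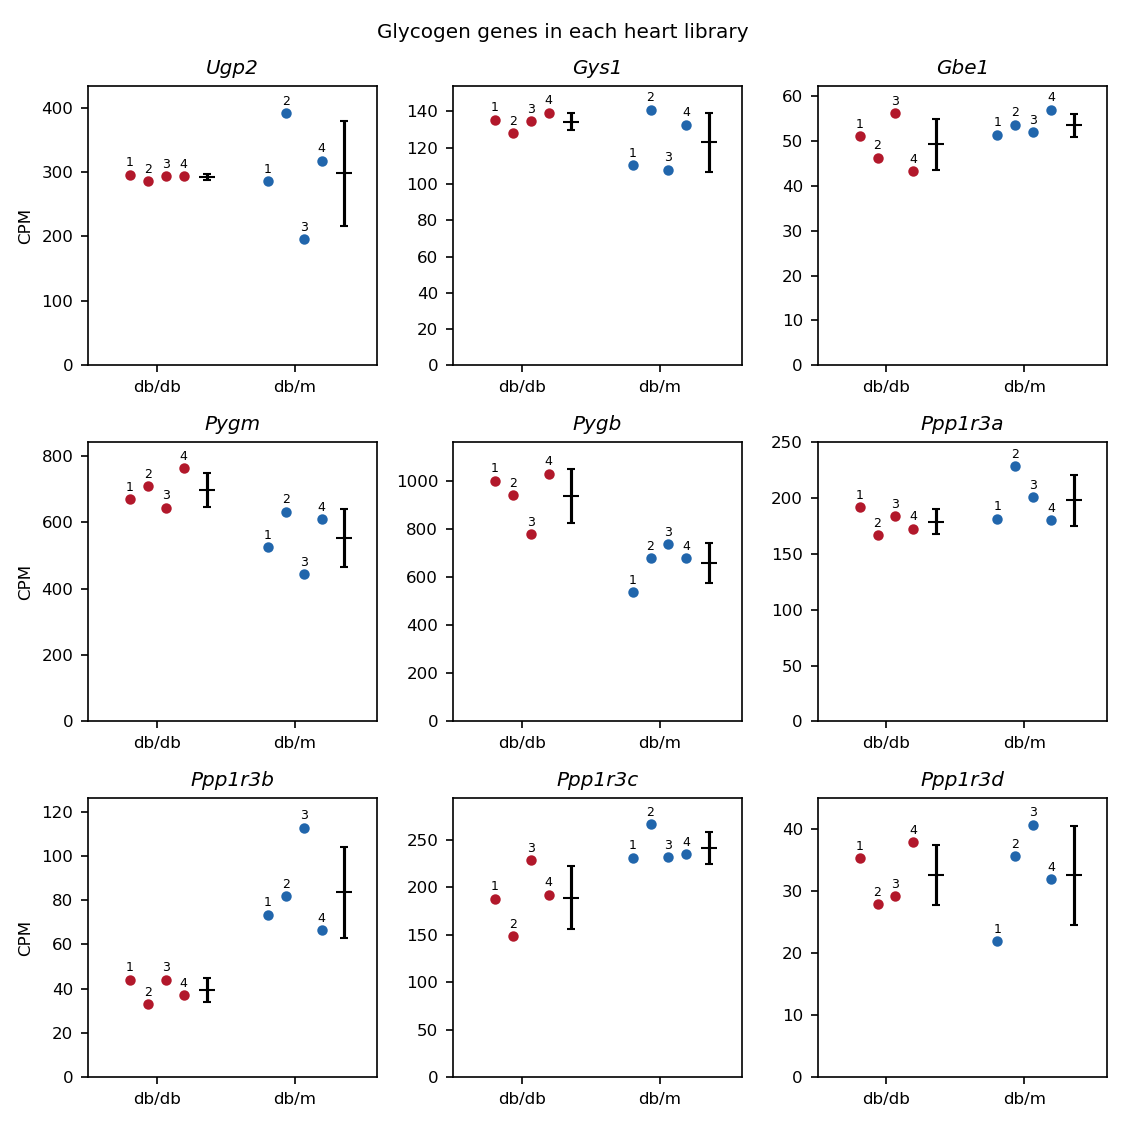
CPM of each of the 9 genes by library, db/db in red left of db/m in blue, with the replicate number above each point and the mean ± SD (n = 4) as a black bar beside each group. Ppp1r3b, Ppp1r3c, Pygm and Pygb show groups that do not overlap.

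Ppp1r3b had the largest difference of the 9. It encodes the PP1 subunit known as GL, which in liver links PP1 to glycogen (ENSMUSG00000046794, chromosome 8, 35375739 to 35388139). The values were 44.0, 33.1, 44.1 and 37.2 CPM in db/db replicates 1 to 4, against 73.4, 81.8, 112.8 and 66.4 CPM in db/m replicates 1 to 4. Every db/db library lay below every db/m library, and db/m replicate 3 stood highest. Raw counts behind these values were 697 to 958 in db/db and 1397 to 2727 in db/m, so that counting error was at most 3.79% of a value.

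The log2 fold change of Ppp1r3b was -1.08 (SE 0.18), a level 0.474 times that of db/m with a 95% confidence interval of 0.358 to 0.628. Its p by edgeR was 0.000145, rank 20 of 17411, and the Benjamini-Hochberg adjusted p was 0.114. Ppp1r3b passed in 5 of 18 alternatives. It did so when db/m replicate 3 was left out (log2 fold change -0.89, SE 0.12; edgeR with Benjamini-Hochberg adjustment, adjusted p = 0.0123, where 0.238% of genes were called lower) and when db/m replicates 1 and 3 were both left out (-0.91, SE 0.14; adjusted p = 0.0276, beside 0.106%). It also passed in DESeq2 (-1.07, adjusted p = 8.95e-05), in limma-voom with quality weights (-0.87, adjusted p = 0.0199) and in edgeR without a filter on low counts (-1.05, adjusted p = 0.0234, against 0.0301%). Without any other single library it did not pass (edgeR adjusted p = 0.122 to 0.364). After removal of the gene length trend the value was -0.98 (edgeR with Benjamini-Hochberg adjustment, adjusted p = 0.0565). The direction was negative in all 18 alternatives, and where groups do not overlap, leaving libraries out can hardly turn it.

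Smooth muscle markers differed in the same direction, with a sum of Myh11, Acta2 and Tagln of 83.2 to 143 CPM in db/db and 179 to 669 CPM in db/m. In 3 of 3 of these markers db/m replicates 1 and 3 lay above the other 6 libraries, and db/m replicates 2 and 4 had sums of 195 and 179 CPM. Among them Acta2, the smooth muscle actin, had 35.1 to 65.0 CPM in db/db and 108 to 286 CPM in db/m without overlap, while Myh11 and Tagln overlapped. The part of these cells in the value of Ppp1r3b was not tested, and in bulk tissue fewer cells of a type cannot be told apart from less RNA per cell. Hepatocyte markers, which bear on a gene first known from liver, were near 0, with all 4 under 20 counts in every library and sums of 0.0921 to 1.02 CPM in db/db and 0.165 to 0.440 CPM in db/m. The libraries db/m replicates 1 and 3 were the highest in 6 of 6 atrial and 7 of 8 adipocyte markers. When they were left out, Ppp1r3b stood at 33.1 to 44.1 CPM in db/db, against 81.8 and 66.4 CPM in db/m replicates 2 and 4.

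Ppp1r3c encodes the subunit that binds synthase, phosphorylase and PP1 together on glycogen (ENSMUSG00000067279, chromosome 19, 36731731 to 36736653). It had 188, 148, 228 and 192 CPM in db/db replicates 1 to 4, against 231, 266, 232 and 235 CPM in db/m replicates 1 to 4. The groups did not overlap, but db/db replicate 3 lay just under the lowest db/m library. The log2 fold change was -0.35 (SE 0.15), or 0.785 times the db/m level with a 95% confidence interval of 0.625 to 0.985 (edgeR, unadjusted p = 0.0391; Benjamini-Hochberg adjusted p = 0.366). Without db/m replicates 1 and 3 it was -0.41 (SE 0.15), with an adjusted p of 0.317 by edgeR. An unadjusted p under 0.05 held in 10 of 18 alternatives, and the adjusted p was 0.225 to 0.615 over them.

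The other PP1 subunits overlapped between genotypes. Ppp1r3a, which in muscle anchors PP1 to glycogen and to the sarcoplasmic reticulum, had 192, 167, 184 and 173 CPM in db/db replicates 1 to 4, against 182, 229, 201 and 180 CPM in db/m replicates 1 to 4. Its log2 fold change was -0.15 (SE 0.12), with a 95% interval of the ratio from 0.746 to 1.10 and an edgeR adjusted p of 0.593. Ppp1r3d, the smallest of the 4 by coding length, had 35.3, 27.9, 29.2 and 37.9 CPM in db/db replicates 1 to 4, against 21.9, 35.6, 40.7 and 31.9 CPM in db/m replicates 1 to 4. Neither group stood apart, and the log2 fold change of 0.0014 (SE 0.19) leaves a 95% interval of 0.743 to 1.35 times the db/m level. The sign of Ppp1r3d changed with the scaling, being -0.12 with library totals only, and it was also negative without db/m replicates 1 and 3 (-0.059).

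As shares of the 4 subunits in counts per length, Ppp1r3b held 6.20%, 5.78%, 5.62% and 5.30% in db/db replicates 1 to 4, against 9.12%, 8.51%, 12.6% and 8.06% in db/m replicates 1 to 4. These shares do not depend on how libraries are scaled, and they did not overlap between genotypes. The gene length trend seen in db/m replicate 3 was not removed from them, and the 4 genes have 2.725 to 6.965 kilobases of merged exons. Ppp1r3c held most of the RNA of the 4 genes, at 62.0% ± 3.24 in db/db and 63.2% ± 3.05 in db/m (SD, n = 4 each), with overlap. Ppp1r3a held 23.2% ± 2.26 in db/db and 20.2% ± 0.720 in db/m, and Ppp1r3d held 9.01% ± 1.36 in db/db and 7.05% ± 1.42 in db/m, both with overlap. Shares add to a fixed sum, so a lower share of one subunit raises the others, and no test was made of them. Without db/m replicates 1 and 3 the share of Ppp1r3b was -2.56 percentage points in db/db relative to db/m, and -3.84 with all libraries.

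**Figure D3:**
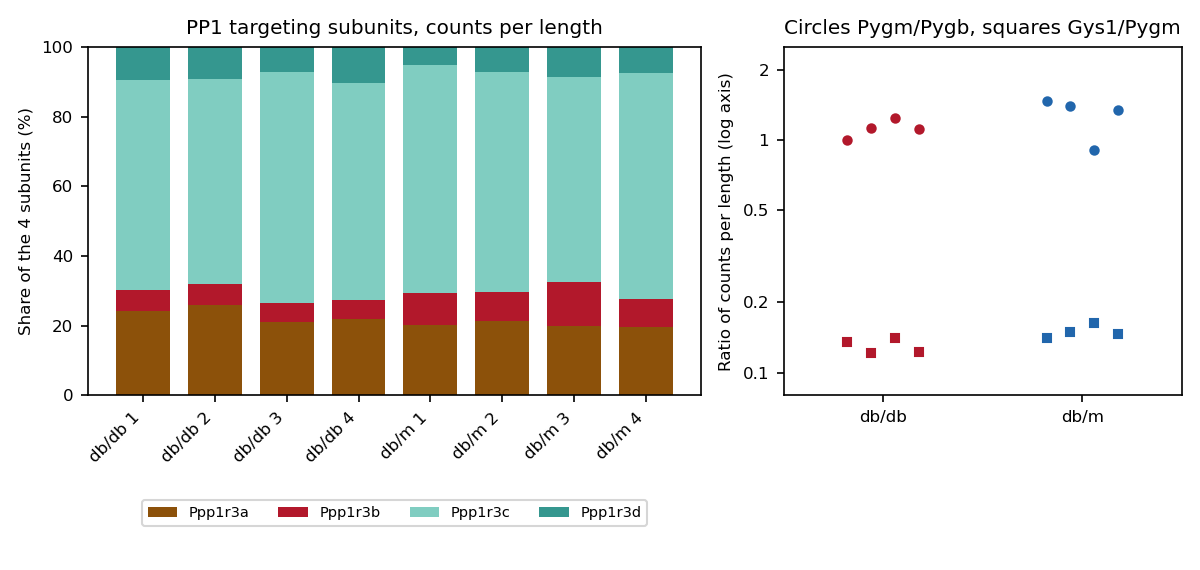
Left, share of each PP1 targeting subunit in the sum of the 4, in percent of counts per length, by library, with db/db left of db/m. Right, ratios within each library on a log axis, with circles for Pygm to Pygb and squares for Gys1 to Pygm, and Ppp1r3b (red bars) at 5.30% to 6.20% in db/db and 8.06% to 12.6% in db/m.

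The 2 phosphorylases were the members whose values lay higher in db/db without overlap. Pygb (ENSMUSG00000033059), the form that heart expresses beside the muscle form, had 1001, 939.8, 779 and 1030 CPM in db/db replicates 1 to 4, against 538, 679, 737 and 679 CPM in db/m replicates 1 to 4. The groups did not overlap, and replicate 3 was both the lowest of db/db and the highest of db/m. The log2 fold change was 0.51 (SE 0.15), or 1.42 times with a 95% confidence interval of 1.12 to 1.81 (edgeR, unadjusted p = 0.00780; Benjamini-Hochberg adjusted p = 0.287). An unadjusted p under 0.05 held in all 18 alternatives, and of these DESeq2 alone gave an adjusted p under 0.05 (0.0440). By edgeR the adjusted p was 0.0874 with db/m replicate 3 left out and 0.210 with db/m replicates 1 and 3 left out. Neuron and glia markers, listed because Pygb is known from brain, summed to 7.18 to 11.5 CPM in db/db and 5.11 to 26.6 CPM in db/m, with overlap and with db/m replicates 1 and 3 above the other 6 libraries in 4 of 4.

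Pygm (ENSMUSG00000032648), whose loss causes McArdle disease of skeletal muscle, had 670, 709, 644 and 763 CPM in db/db replicates 1 to 4, against 525, 632, 443 and 609 CPM in db/m replicates 1 to 4. The groups did not overlap, but the gap between db/db replicate 3 and db/m replicate 2 was small. The log2 fold change was 0.33 (SE 0.15), or 1.26 times (edgeR, unadjusted p = 0.0497; Benjamini-Hochberg adjusted p = 0.385). It was 0.25 without db/m replicate 3, which had the lowest value, and 0.16 (SE 0.11; edgeR adjusted p = 0.673) without db/m replicates 1 and 3, less than the value with all libraries by over 1.5 times. An unadjusted p under 0.05 held in 6 of 18 alternatives. Skeletal muscle markers, 7 of 8 of them under 20 counts in every library, summed to 0.587 to 1.24 CPM in db/db and 0.736 to 2.40 CPM in db/m, and Tnnc2 had 1 count over all libraries.

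The ratio of Pygm to Pygb per length was 1.0, 1.13, 1.23 and 1.11 in db/db replicates 1 to 4, against 1.46, 1.39, 0.899 and 1.34 in db/m replicates 1 to 4. The db/m libraries other than replicate 3 therefore lay above all db/db libraries, and db/m replicate 3 lay below them, so the groups overlapped. The difference of the mean log2 ratio was -0.17 with all libraries, -0.32 without db/m replicate 3 and -0.29 without db/m replicates 1 and 3. The ratio of Gys1 to Pygm was 0.136, 0.121, 0.141 and 0.123 in db/db replicates 1 to 4, against 0.141, 0.150, 0.164 and 0.146 in db/m replicates 1 to 4. Here the groups did not overlap, although db/db replicate 3 and db/m replicate 1 differed by less than 0.001. The difference of the mean log2 ratio was -0.21, with SDs of 0.11 in db/db and 0.09 in db/m. It was -0.19 without db/m replicates 1 and 3. The gene length trend seen in db/m replicate 3 was not removed from either ratio. Merged exons measure 3.218 kilobases in Pygm, 4.789 in Gys1 and 4.809 in Pygb.

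Synthesis genes gave no difference beyond the spread. Gys1 (ENSMUSG00000003865, chromosome 7, 45434844 to 45456619) had 136, 128, 135 and 139 CPM in db/db replicates 1 to 4, against 111, 141, 108 and 133 CPM in db/m replicates 1 to 4. The db/db libraries lay inside the range of the db/m libraries, which split into a lower and a higher pair. Its log2 fold change was 0.13 (SE 0.13), with a 95% interval of 0.900 to 1.32 times the db/m level (edgeR with Benjamini-Hochberg adjustment, adjusted p = 0.637). The sign turned without db/m replicates 1 and 3, the lower pair, to -0.032.

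Ugp2 (ENSMUSG00000001891, chromosome 11, 21321138 to 21371201) had 296, 285, 293 and 294 CPM in db/db replicates 1 to 4, against 286, 392, 196 and 318 CPM in db/m replicates 1 to 4. The db/db libraries were nearly equal, with a coefficient of variation of 1.56% against 27.2% in db/m, where counting error was at most 1.45%. The log2 fold change of -0.028 (SE 0.19) has a 95% interval of 0.731 to 1.32 times the db/m level (edgeR adjusted p = 0.954). With db/m replicates 1 and 3 left out the value was -0.29 (SE 0.11; edgeR, unadjusted p = 0.0220, adjusted p = 0.359). Gbe1 (ENSMUSG00000022707, chromosome 16, 70313949 to 70569716), whose loss causes glycogen storage disease of the branching type, had 51.1, 46.2, 56.2 and 43.2 CPM in db/db replicates 1 to 4, against 51.4, 53.6, 51.9 and 56.9 CPM in db/m replicates 1 to 4. The groups overlapped, and the log2 fold change of -0.12 (SE 0.12) has a 95% interval of 0.766 to 1.11 times the db/m level (edgeR adjusted p = 0.640).

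**Figure D4:**
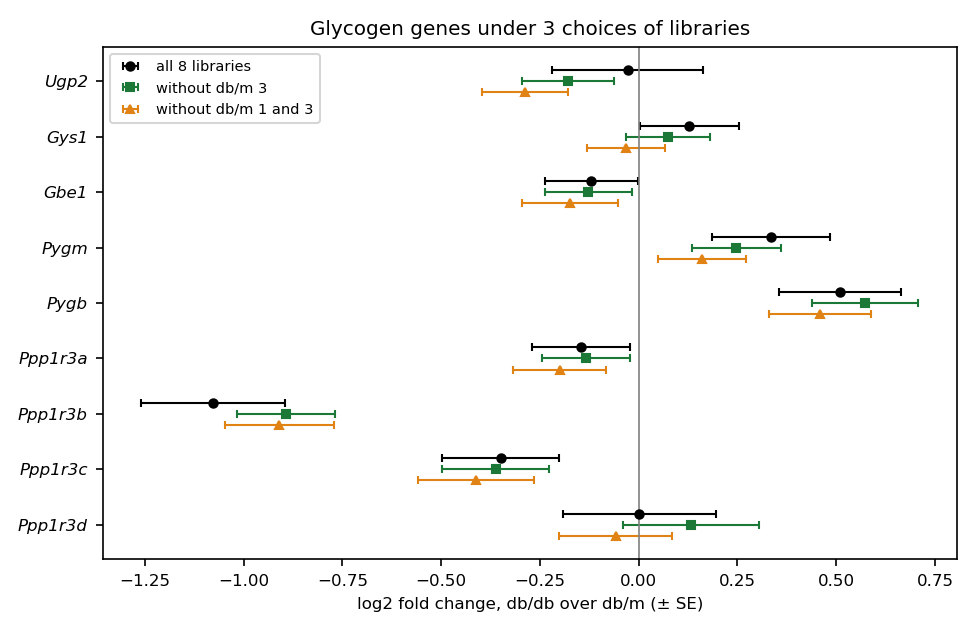
Log2 fold change of db/db over db/m (± SE, edgeR) of the 9 genes with all 8 libraries, without db/m replicate 3 and without db/m replicates 1 and 3. Ppp1r3b lies between -1.08 and -0.89, Pygb between 0.46 and 0.57, and Pygm, Gys1 and Ugp2 shift toward lower values as the db/m libraries are left out.

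The spread among libraries was itself unequal. The coefficient of variation was larger in db/m than in db/db in 7 of the 9 genes, the exceptions being Gbe1 (11.6% in db/db and 4.67% in db/m) and Ppp1r3c (17.3% in db/db and 7.0% in db/m). Within the db/m group replicate 3 was highest in 3 genes, Pygb, Ppp1r3b and Ppp1r3d, and lowest in 3, Ugp2, Gys1 and Pygm. Within db/db, replicate 2 was lowest in 6 of the 9. In log2 CPM centred on each gene's mean over the 8 libraries, the coding genes nearest to Ppp1r3b among 10379 with at least 5 CPM were Itga9, an integrin subunit (root mean square difference 0.12), Zfp965 (0.17) and Epha4, an ephrin receptor (0.18), against a root mean square spread of 0.58 for Ppp1r3b itself. Itga9 averaged 58.8 CPM in db/db and 123.8 CPM in db/m. By the same measure Fbxo21 (0.085) and Vwa7 (0.090) were among the nearest to Pygb (own spread 0.30), and the nearest to Ppp1r3c were Kdelc1, Slc16a10 and Hus1 (0.079 to 0.090, own spread 0.25).

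Other genes of glycogen metabolism gave no adjusted call. Of 27 names listed, 26 were in the table (Gyg, the primer protein glycogenin, was matched and Gyg1 was not) and 25 were tested. The liver synthase Gys2, not tested, had 0 to 3 counts in db/db and 23, 0, 121 and 0 counts in db/m replicates 1 to 4. By edgeR with Benjamini-Hochberg adjustment 0 of 25 passed (0 in DESeq2 and limma-voom too), while 3 were higher and 0 lower at an unadjusted p under 0.05, beside 5.12% of all genes higher and 7.84% lower. The median log2 fold change was 0.033 over the 25 genes, against -0.019 over all genes, with 13 positive. With library totals only the median of the 25 was -0.082, and it was also negative with the gene length trend removed (-0.029) and without some single libraries.

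The 3 genes are Phkb, the beta subunit of the phosphorylase kinase that switches phosphorylase on, Epm2a, the glycogen phosphatase laforin, and Pgm1, the mutase that links glucose phosphates to both ends of the pathway. Phkb had 55.3, 56.8, 60.3 and 62.2 CPM in db/db replicates 1 to 4, against 43.8, 44.6, 39.0 and 50.5 CPM in db/m replicates 1 to 4, a log2 fold change of 0.40 (SE 0.12; edgeR, unadjusted p = 0.00660, adjusted p = 0.271). Epm2a had 62.6, 53.8, 55.0 and 54.0 CPM in db/db replicates 1 to 4, against 36.3, 48.5, 40.5 and 50.3 CPM in db/m replicates 1 to 4, a log2 fold change of 0.36 (SE 0.13; edgeR adjusted p = 0.334). Pgm1 had 184, 183, 179 and 207 CPM in db/db replicates 1 to 4, against 129, 175, 101 and 160.5 CPM in db/m replicates 1 to 4, a log2 fold change of 0.41 (SE 0.17; edgeR adjusted p = 0.365). All 3 had groups that did not overlap, but they were picked by an unadjusted p under 0.05, so 3 of 3 has no counterpart among all genes. Of the 25 genes tested, 3 were higher in db/db without overlap and 0 lower. Of all genes tested, 5.04% were higher without overlap and 4.61% lower. The lower values of Pgm1 and Epm2a in db/m were those of replicates 1 and 3. Without these libraries the log2 fold change was 0.16 for Pgm1 (SE 0.11; edgeR, unadjusted p = 0.166), 0.18 for Epm2a (SE 0.11; edgeR, unadjusted p = 0.121) and 0.30 for Phkb (SE 0.11; edgeR, unadjusted p = 0.0199, adjusted p = 0.343). An unadjusted p under 0.05 held in 11 of 18 alternatives for Pgm1, 14 for Epm2a and 18 for Phkb.

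Of the most abundant others, Ppp1cb, the PP1 catalytic subunit that the PPP1R3 proteins carry in muscle, averaged 554 ± 24.1 CPM in db/db and 506 ± 66.4 CPM in db/m (SD, n = 4 each; log2 fold change 0.13, SE 0.14). Gaa, the lysosomal glucosidase that degrades glycogen, averaged 162 ± 26.4 CPM in db/db and 173 ± 11.4 CPM in db/m. Both overlapped between genotypes, and Ppp1cb was at -0.013 without db/m replicates 1 and 3. The 19 tested genes that the naming rule left out had log2 fold changes from -1.83 to 0.36, none with an unadjusted p under 0.05. Endothelial markers summed to 1086 to 1575 CPM in db/db and 1147 to 1391 CPM in db/m, fibroblast markers to 711 to 1068 in db/db and 756 to 1347 in db/m, macrophage markers to 34.9 to 129 in db/db and 95.7 to 147 in db/m, and erythroid markers to 788 to 1165 in db/db and 730.0 to 1713 in db/m, all with overlap.

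**Figure D5:**
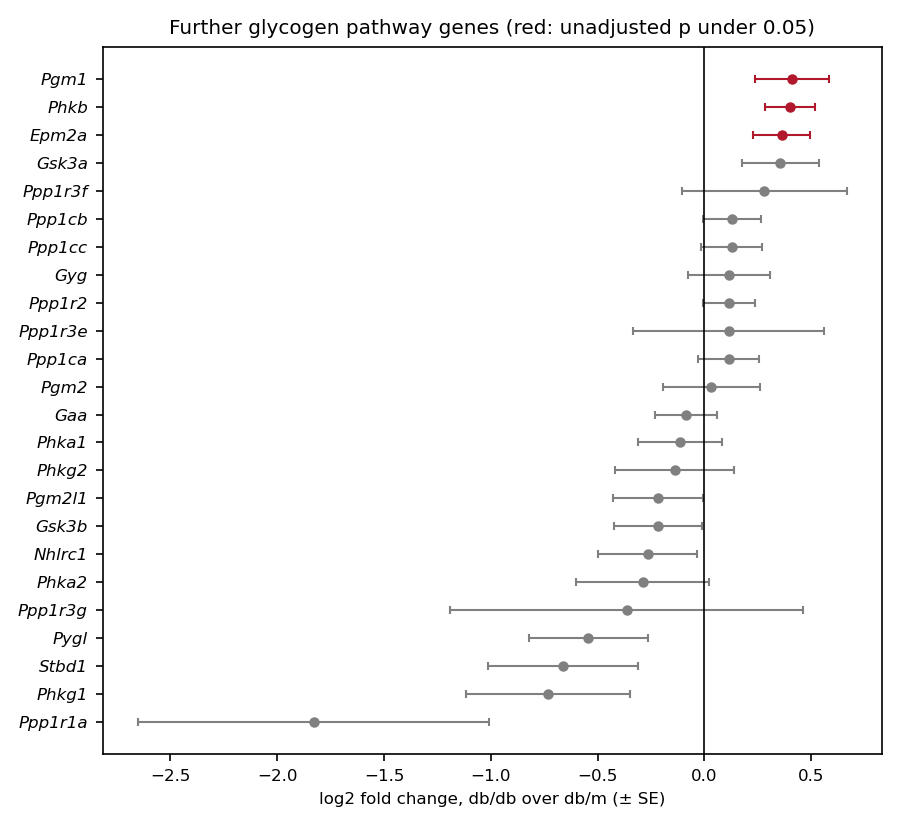
Log2 fold change of db/db over db/m (± SE, edgeR, all 8 libraries) of further glycogen pathway genes tested, red where the unadjusted p is under 0.05. Pgm1, Phkb and Epm2a lie at 0.36 to 0.41, and Ppp1r1a is the lowest at -1.83 with one of the widest errors. Its counts were low, 6 to 10 in db/db and 45, 1, 66 and 13 in db/m replicates 1 to 4.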

How the data were processed

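The authors deposited a raw read count for each Ensembl gene and library, without pooling, per the file headers and the whole-number values. The submitters' processing notes name the build mm10, and the libraries were made with a NEBNext Ultra kit, per the labels' protocols. The sources used here give no aligner, counter, annotation release or strandedness. The deposited table also gives a length for each gene, which served for counts per length. The 8 files of single libraries equalled the series table, and no pair of libraries of a genotype agreed within sampling noise (chi-square per degree of freedom 14.0 or more). Symbols came from GENCODE M21, which matched 55480 of 55573 identifiers.

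Groups were taken from the genotype labels. edgeR 4.0.16 in R 4.3.3 fitted genotype as a single factor to genes kept by filterByExpr (minimum count 10, minimum total 15), with TMM scaling, robust quasi-likelihood F tests (two-sided) and Benjamini-Hochberg adjustment over 17411 genes at 0.05. Log2 CPM used a prior count of 2. Copies were sought with BLAST 2.17.0. Alternatives were DESeq2 1.42.0, limma-voom (limma 3.58.1), other scalings and filters, removal of the gene length trend, a replicate block and leaving out libraries; leaving out db/m replicates 1 and 3 together was added after seeing the data. The scripts were tested on simulated data. The members and lists were chosen with earlier results of these data known. All members are named, with those of 27 further pathway names that had an unadjusted p under 0.05 or, up to 6 in all, the highest CPM, and the 3 nearest genes of the 3 members with the largest differences. A gene of the pathway list and a gene near Pygb are not reported here.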

Additional observations from a re-analysis of the deposited data

Results flagged for a closer look

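Groups of 4 libraries were searched for a value far from the other 3, and 4 of 42 groups had one by Dixon's test, where chance gives about 1 in 20. Ppp1r3c stood at 266 CPM in db/m replicate 2, above 231 to 235 CPM in the other db/m libraries. Epm2a stood at 62.6 CPM in db/db replicate 1, Pgm1 at 207 CPM in db/db replicate 4 and Gaa at 123 CPM in db/db replicate 3, the last the lowest of its group.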

How the results depend on the processing

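Directions of Ppp1r3b, Ppp1r3c, Ppp1r3a, Pygb, Pygm and Gbe1 were the same in all 18 alternatives. Ppp1r3d turned negative with library totals only (-0.12), 1 CPM in 4 libraries (-0.0025), the length trend removed (-0.042) and without db/m replicates 1 and 3 (-0.059), and ranged from -0.14 to 0.13 without single libraries. Ugp2 was 0.014 with the replicate block and -0.18 to 0.13 without single libraries, and Gys1 was -0.032 without db/m replicates 1 and 3, as Ppp1cb was -0.013. Gaa ranged from -0.14 to 0.026 without single libraries, positive without db/db replicate 3. Library totals only moved the median of all genes by -0.115.

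Over all genes edgeR called 1 lower and 0 higher. Calls lower and higher were 9 and 18 with no filter, 191 and 186 in DESeq2, 47 and 54 in limma-voom, 2 and 3 with the replicate block, 6 and 6 with the length trend removed, 19 and 27 without db/m replicates 1 and 3, and 0 to 42 and 0 to 64 without single libraries (42 and 64 without db/m replicate 3). The members had 1 adjusted call lower with no filter, in DESeq2, in limma-voom and without db/m replicates 1 and 3, 0 to 1 without single libraries, and 1 higher in DESeq2. At an unadjusted p, members higher were 1 with upper-quartile factors, library totals only, no filter, 1 CPM in 4 libraries, the replicate block and without db/m replicates 1 and 3, and members lower were 1 with no filter and the replicate block; without single libraries both ranged from 1 to 2. Further pathway genes lower at an unadjusted p were 1 with the replicate block (6.08% of all genes) and 2 with no filter (5.49%). They were also 2 without db/m replicates 1 and 3 (5.04%). With upper-quartile factors, DESeq2, limma-voom and the length trend removed they were 1, with library totals only 2, and without single libraries 0 to 3. Those higher were 1 with library totals only (3.03%), 2 without db/m replicates 1 and 3 (5.63%) and 1 to 3 without single libraries. Counts printed without a share of all genes cannot be read against one. The share of Ppp1r3a was 5.20 and that of Ppp1r3b -6.01 percentage points in db/db relative to db/m with raw counts in place of counts per length. Without single libraries the differences ranged from -0.32 to -0.092 for log2 Pygm to Pygb, -0.25 to -0.17 for log2 Gys1 to Pygm, 2.10 to 3.79 points for Ppp1r3a, -4.34 to -2.84 for Ppp1r3b, -2.59 to -0.123 for Ppp1r3c and 1.33 to 2.60 for Ppp1r3d. The causes were not tested.

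Replicate numbers are shared by the titles but nothing says that they pair animals, and deviations of same-numbered libraries correlated at -0.088, 0.056, 0.027 and 0.016. With the replicate block Ppp1r3b had -1.06 (edgeR adjusted p = 0.131). Counting error was at most 4.48% of a member value in any library, and limma-voom gave db/m replicate 3 a weight of 0.1245, against 0.943 to 2.085 for the other libraries.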
